A study of Homo sapiens with 9 samples.

Results

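Mitochondrial ribosomal proteins were followed through 78 protein-coding genes whose symbols begin with MRPL or MRPS and a number, out of 58735 genes counted. Genes with a hyphen in the symbol, which name antisense or read-through transcripts, were left out. All 78 members passed the filter on low counts. The counts came from RNA of the line MDA-MB-231, long established from a triple-negative breast cancer (TNBC), in 9 libraries. There were 3 libraries of vehicle-treated cells (DMSO), 3 of cells that had survived increased concentrations of erastin (erastin-R) and 3 of cells that had survived RSL3 (RSL3-R). Erastin inhibits the cystine importer system xc- and RSL3 inhibits glutathione peroxidase GPX4, and both cause ferroptosis, an iron-dependent form of cell death with lipid peroxidation. The survivors are 1 cell line selected by drug, and the labels do not say whether the libraries of a condition came from separate cultures, so p values measure only the spread between these libraries.

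The mitochondrial ribosome makes the few respiratory chain subunits that are encoded by mitochondrial DNA. Its RNAs, MT-RNR1 and MT-RNR2, are transcribed in the mitochondrion, while all of its proteins are encoded in the nucleus, made in the cytosol and imported. The names MRPL and MRPS stand for proteins of the large and the small subunit. Some members have counterparts in bacterial ribosomes and others are found only in mitochondria. By this background, 30 members were conserved proteins of the large subunit, 21 were large subunit proteins particular to mitochondria, 16 were conserved proteins of the small subunit and 10 were small subunit proteins particular to mitochondria. MRPS30 and MRPS18A carry small subunit names but sit in the large subunit and were counted there. MRPS36 is a subunit of the 2-oxoglutarate dehydrogenase complex and was kept apart.

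Each library held 15405102 to 17273464 counts, and libraries of 1 condition correlated at 0.986 to 0.992 across genes against 0.959 to 0.972 between conditions. VIM, CD44, AXL and CAV1, known from this line, were each at 231.6 CPM or more in every library. SPARC, also listed for it, had at most 4.56 CPM. ESR1 and PGR, whose products are absent from TNBC, had at most 0.749 and 0.123 CPM. GATA3, FOXA1 and EPCAM, listed as absent or low in this line, had at most 7.22, 2.235 and 2.85 CPM. The leukocyte marker PTPRC reached at most 24 counts and the endothelial marker PECAM1 at most 222 counts. PECAM1 ranged from 1.298 to 13.9 CPM between libraries. The highest values of GATA3 and PECAM1 thus lay above that of SPARC. Erastin-R replicate 1 stood apart from the other erastin-R libraries for many members. Of the 41 members that differed between erastin-R and vehicle-treated cells, 31 had replicate 1 as the erastin-R library nearest to the vehicle mean.

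The members are scattered over 21 chromosomes with at most 8 on any of them, and 40 lie on the plus strand. Promoter windows of RefSeq, from 250 bases before to 50 bases after a start site, were at hand for 69 members, and none was used for MRPL2, MRPL10, MRPL13, MRPL15, MRPL21, MRPL23, MRPL35, MRPS28 and MRPS36. They were searched on both strands for short words known as core sequences of factors that act on genes for mitochondrial proteins. These words were chosen with the results of the comparisons in view. For each member 1 window was used, the one whose start lay nearest to the 5′ end of the gene model. The shares given for all windows and for tested protein-coding genes count every window without this choice. The members and the background were thus not chosen alike. The word AAGATGGCG of YY1 was in 13 member windows (18.8%), against 1.75% of all 35116 windows and 3.30% of the windows of protein-coding genes tested here. The word GCGCANGCG of NRF1 was also in 13 (18.8%), against 7.52% and 12.2%. The word CCGGAAGT of ETS factors such as GABP was in 11 (15.9%), against 4.14% and 7.23%. The E-box CACGTG was in 7 windows (10.1%, against 7.26% and 9.07%), and the word TGATGNAAT of C/EBP-ATF dimers was in 1, that of MRPL55. A word is a description of the sequence and not a bound site. None of the printed words overlapped another. The RefSeq start of MRPS18B lies 131 bases from the 5′ end of the gene model used for counting.

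The windows below run from 100 bases before to 50 bases after the start. They are those of the members picked by the naming rule that hold a YY1, NRF1 or ETS word there and share under 5% of their exon length with other genes. Capitals mark the word. MRPS30, MRPS18B and MRPS10 had the YY1 word, which began 13, 23 and 9 bases after the start. MRPL27 had the ETS word at positions -52 and -8, and MRPS34 had it on the other strand at position -20. MRPS30 and MRPS10 are among the 3 members that rose in RSL3-R cells, the MRPS10 call being lost under 9 of 16 other settings. MRPS18B rose in erastin-R cells, and MRPL27 and MRPS34 are among the 4 members that fell most in RSL3-R cells. The named members MRPL38, MRPL46, MRPS18A and MRPS24 also hold the YY1 word but were left out for their overlaps. Of these, MRPL38 fell in RSL3-R cells and MRPS24 rose in erastin-R cells. MRPL46 and MRPS18A were not called against vehicle with all libraries.
MRPS30, GRCh38.p14, chr5:44808847-44808996, plus strand: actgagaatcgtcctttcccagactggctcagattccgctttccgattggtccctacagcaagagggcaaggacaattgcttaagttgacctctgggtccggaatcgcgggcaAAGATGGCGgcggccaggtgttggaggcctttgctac
MRPS18B, GRCh38.p14, chr6:30617740-30617889, plus strand: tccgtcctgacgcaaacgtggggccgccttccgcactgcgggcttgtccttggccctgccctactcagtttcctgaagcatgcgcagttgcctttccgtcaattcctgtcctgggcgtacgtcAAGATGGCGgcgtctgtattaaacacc
MRPS10, GRCh38.p14, chr6:42217812-42217961, minus strand: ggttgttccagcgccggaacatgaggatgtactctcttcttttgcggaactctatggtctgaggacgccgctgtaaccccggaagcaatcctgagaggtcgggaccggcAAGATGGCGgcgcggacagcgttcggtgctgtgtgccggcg
MRPL27, GRCh38.p14, chr17:50373135-50373284, minus strand: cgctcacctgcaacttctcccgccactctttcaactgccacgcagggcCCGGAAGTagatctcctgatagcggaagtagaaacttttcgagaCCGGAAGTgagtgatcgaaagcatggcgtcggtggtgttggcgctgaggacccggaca
MRPS34, GRCh38.p14, chr16:1773085-1773234, minus strand: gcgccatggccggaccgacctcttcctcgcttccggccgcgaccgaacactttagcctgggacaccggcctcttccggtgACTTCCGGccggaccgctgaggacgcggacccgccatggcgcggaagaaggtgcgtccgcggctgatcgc

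Levels are given as CPM, counts scaled to library size with the TMM factors of edgeR, and between genes only as CPM per kilobase of exon. In vehicle-treated cells the members ranged from 0.264 to 83.0 CPM per kilobase with a median of 14.9. MRPS10, a conserved protein of the head of the small subunit, was highest at 83.0 ± 3.33 CPM per kilobase (SD, n = 3). MRPL14, a conserved protein at the subunit interface, followed at 61.2 ± 5.56, and MRPS18B, a mitochondrial small subunit protein, at 50.1 ± 0.528. Each of these exceeded the next by more than the sum of their SDs, as did 14 of the 77 neighbours in the order. MRPL51, MRPS34 and MRPL3 had 40.6 ± 4.64, 39.2 ± 3.29 and 39.1 ± 0.260 CPM per kilobase and lay within their spread. The lowest were MRPS24 (0.264 ± 0.0675), MRPL46 (0.633 ± 0.0750) and MRPL38 (1.06 ± 0.216).

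All 5 members with the lowest levels shared exon sequence with another gene on the same strand, as did 14 of the 78 members at 5% of exon length or more. Reads that fall on such a stretch belong to more than 1 gene, and how the authors counted them is not stated. The shared part was 23.2% for MRPS24, 11.3% for MRPL46, 37.5% for MRPL38, 45.2% for MRPL53 and 27.0% for MRPS17. It was largest for MRPL12 at 68.2%. A further limit is that 21 members shared 5% or more of their exons with a gene on the opposite strand. The kit did not mark strand, so reads on these stretches cannot be assigned by strand either. Among these 21 were MRPS12 (16.3%), MRPL2 (14.7%), MRPS2 (14.4%), MRPS7 (10.8%) and MRPL47 (9.05%), which are described below. Levels of these members are uncertain, and the part of the overlap in their changes was not tested. The 75 pseudogenes named after members took 88 to 141 counts per library together, against 43835 to 56083 for the members.

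**Figure D1:**
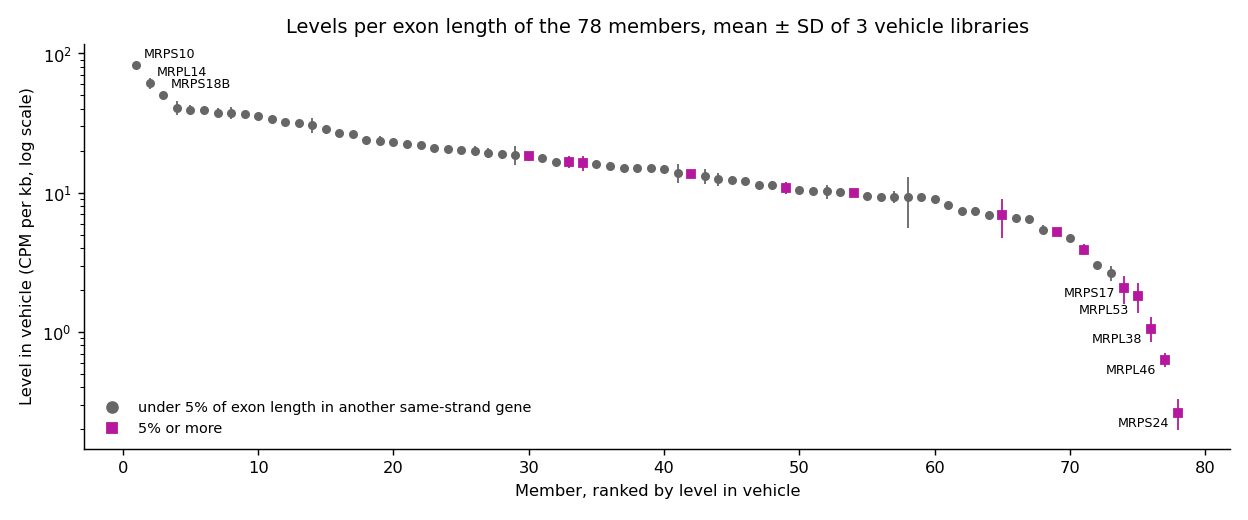
Level per exon length of each of the 78 members in vehicle-treated cells, in CPM per kilobase on a log scale, ranked from highest to lowest. Points are means and bars SD of 3 libraries, and squares mark the 14 members with 5% or more of their exon length in another gene on the same strand, which include the 5 lowest members. Overlaps with genes on the opposite strand are not marked.

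Summed over the 78 members, the level was 3343.5, 3356.1 and 3257 CPM in the 3 vehicle libraries (3319 ± 53.9, SD, n = 3). The erastin-R libraries had 3190.6, 3101.8 and 3149.8 CPM (3147 ± 44.4), and the RSL3-R libraries had 2826.1, 2788.4 and 2830.1 CPM (2815 ± 23.0). For this sum the 3 conditions did not overlap. Large subunit genes summed to 2085 ± 51.9, 1975 ± 49.9 and 1733 ± 19.6 CPM in vehicle-treated, erastin-R and RSL3-R cells, and their lowest vehicle library (2026.8) lay just under their highest erastin-R library (2027.5). For small subunit genes the sums were 1208 ± 5.30, 1153 ± 10.2 and 1065 ± 11.6 CPM. CPM is a share of the counted RNA, and in bulk RNA a change in the mix of cells and a change in RNA per cell cannot be told apart.

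**Figure D2:**
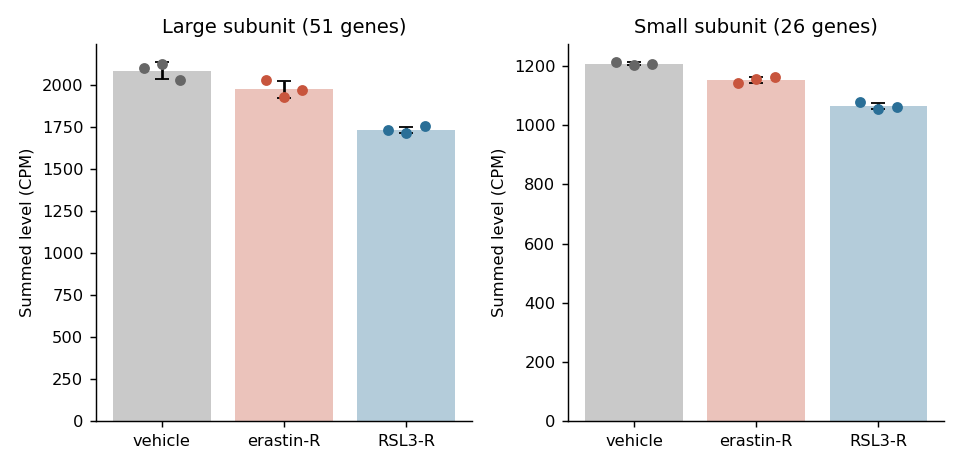
Summed level in CPM of the 51 large subunit genes and the 26 small subunit genes in vehicle-treated, erastin-R and RSL3-R cells. Bars are means with SD, points are the 3 libraries, and both sums are lowest in RSL3-R cells, at 1733 and 1065 CPM.

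Erastin-R cells were compared with vehicle-treated cells by edgeR's quasi-likelihood test, with p values adjusted by the Benjamini-Hochberg method over 16188 genes. At an adjusted p under 0.05, 12 members were higher and 29 lower, and 37 were not called. Among all genes tested 27.1% were higher and 26.8% lower, against 15.4% and 37.2% of the members. The median log2 fold change of the members was -0.17, and that of all genes was -0.0042. Also past an absolute log2 fold change of 1 were 4 members, MRPL23, MRPL48, MRPL1 and MRPS24, where 13.4% of all genes were called. In 13 members every erastin-R library lay above every vehicle library and in 30 every one lay below, while these shares were 28.7% and 29.1% of all genes. Without erastin-R replicate 3 only 7 members were called higher.

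By subunit, 9 of the 51 large subunit genes were higher and 19 lower in erastin-R cells, and 3 of the 26 small subunit genes were higher and 9 lower. Of the 30 conserved large subunit genes, 14 were lower and 5 higher. Of the 21 large subunit genes particular to mitochondria, 5 were lower (23.8%) and 4 higher (19.0%), against 26.8% and 27.1% of all genes. The small subunit had 6 lower and 2 higher of 16 conserved genes, and 3 lower and 1 higher of 10 mitochondrial ones. MRPS36 was lower (log2 fold change -0.44, edgeR adjusted p = 0.00323). Among the 44 members with under 5% of their exons in another gene, 8 were higher and 18 lower.

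MRPL1 (chromosome 4 of GRCh38, 77862520 to 77952790) corresponds to the bacterial protein of the mobile stalk beside the exit site for tRNA. Its level was 34.2, 38.7 and 39.97 CPM in vehicle-treated cells, 16.6, 15.7 and 13.9 in erastin-R cells and 24.5, 28.1 and 26.1 in RSL3-R cells. No library of 1 condition reached the range of another. Relative to vehicle, the log2 value changed by -1.29 in erastin-R (SE 0.10, edgeR adjusted p = 1.47e-07) and by -0.52 in RSL3-R (SE 0.09, edgeR adjusted p = 4.44e-04). RSL3-R cells were above erastin-R cells by 0.77 (SE 0.10, edgeR adjusted p = 2.88e-05).

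MRPL48 (chromosome 11, 73787316 to 73865133) is a mitochondrial protein of the central protuberance, the crown of the large subunit. It had 29.3, 29.2 and 27.5 CPM in vehicle-treated cells, 13.6, 9.93 and 10.8 in erastin-R cells and 17.1, 17.3 and 17.6 in RSL3-R cells. The conditions were again separate, with erastin-R lowest. Erastin-R differed from vehicle by -1.32 on the log2 scale (SE 0.11, edgeR adjusted p = 3.51e-07) and RSL3-R by -0.72 (SE 0.11, edgeR adjusted p = 7.96e-05).

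MRPL23 (chromosome 11, 1947278 to 1984522) belongs to the proteins around the exit of the peptide tunnel. It read 33.7, 34.0 and 14.99 CPM in vehicle-treated cells, 13.9, 9.03 and 7.05 in erastin-R cells and 18.4, 17.6 and 15.3 in RSL3-R cells. Vehicle replicate 3 lay far below the other vehicle libraries and just under the RSL3-R range. Erastin-R had a log2 fold change of -1.46 (SE 0.28, edgeR adjusted p = 5.08e-04) and -1.76 without vehicle replicate 3. That of RSL3-R was -0.69 (SE 0.26, edgeR adjusted p = 0.0428) and -0.99 without that library, and this call was lost under 6 of 16 other settings.

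Other members that fell in erastin-R cells included MRPL54, a mitochondrial large subunit protein, with 19.3 to 21.4 CPM in vehicle-treated cells and 9.67 to 14.5 in erastin-R cells (log2 fold change -0.87). MRPL47 and MRPL24, which lie near the tunnel exit, had log2 fold changes of -0.72 and -0.67. MRPL27, whose bacterial counterpart reaches toward the peptidyl transferase centre, fell by 0.66 on the log2 scale. MRPS28 had 6.60 to 7.81 CPM in vehicle-treated cells against 6.31, 2.80 and 3.34 in erastin-R cells, so that replicate 1 stayed close to the vehicle range. Its log2 fold change was -0.77 with all libraries and -1.20 without erastin-R replicate 1. The call was lost without erastin-R replicate 2 (-0.55), erastin-R replicate 3 (-0.63) or vehicle replicate 1 (-0.70). MRPS28 shares 35.8% of its exons with another gene. MRPL40, another protein of the central protuberance, fell by 0.64.

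Of the members that rose in erastin-R cells, MRPL10 (chromosome 17, 47823272 to 47831534) anchors the flexible stalk that binds translation factors. Its level was 42.8, 40.9 and 41.9 CPM in vehicle-treated cells, 57.4, 69.2 and 65.1 in erastin-R cells and 51.6, 48.8 and 45.1 in RSL3-R cells. The order erastin-R, RSL3-R, vehicle held without overlap. Against vehicle, erastin-R gained 0.61 on the log2 scale (SE 0.08, edgeR adjusted p = 2.64e-05). RSL3-R gained 0.21 (SE 0.08, edgeR adjusted p = 0.0462), and this second call was lost under 9 of 16 other settings. Its stalk partner MRPL11 fell, with log2 fold changes of -0.51 and -0.67.

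MRPL41 (chromosome 9, 137551199 to 137552555), a mitochondrial large subunit protein, had 43.3, 46.8 and 43.6 CPM in vehicle-treated cells and 59.9, 67.1 and 70.3 in erastin-R cells. In RSL3-R cells it had 42.2, 47.2 and 42.7 CPM, which overlapped the vehicle range. On the log2 scale, erastin-R lay 0.56 above vehicle (SE 0.08, edgeR adjusted p = 4.10e-05), and the value for RSL3-R was -0.02 (edgeR adjusted p = 0.882).

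MRPS30 (chromosome 5, 44808925 to 44820428), whose promoter is printed above, read 57.7, 56.1 and 62.6 CPM in vehicle-treated cells. It rose to 81.7, 88.5 and 79.3 in erastin-R cells and to 72.1, 65.9 and 79.7 in RSL3-R cells. The log2 fold changes were 0.50 (SE 0.08, edgeR adjusted p = 1.32e-04) and 0.30 (SE 0.08, edgeR adjusted p = 0.00632). It was called under all 16 other settings in both comparisons.

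MRPS24 had the largest change of any member in erastin-R cells, with a log2 value of 1.61 (SE 0.31, edgeR adjusted p = 6.39e-04). It was measured near the bottom of the range, at 0.835, 0.741 and 0.493 CPM in vehicle-treated cells and 1.91, 1.78 and 2.67 CPM in erastin-R cells. These values rest on few reads and on a gene that shares 23.2% of its exons with the read-through gene URGCP-MRPS24, which had 0 counts in every library. MRPS18B and MRPL32 rose by 0.29 and 0.26.

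**Figure D3:**
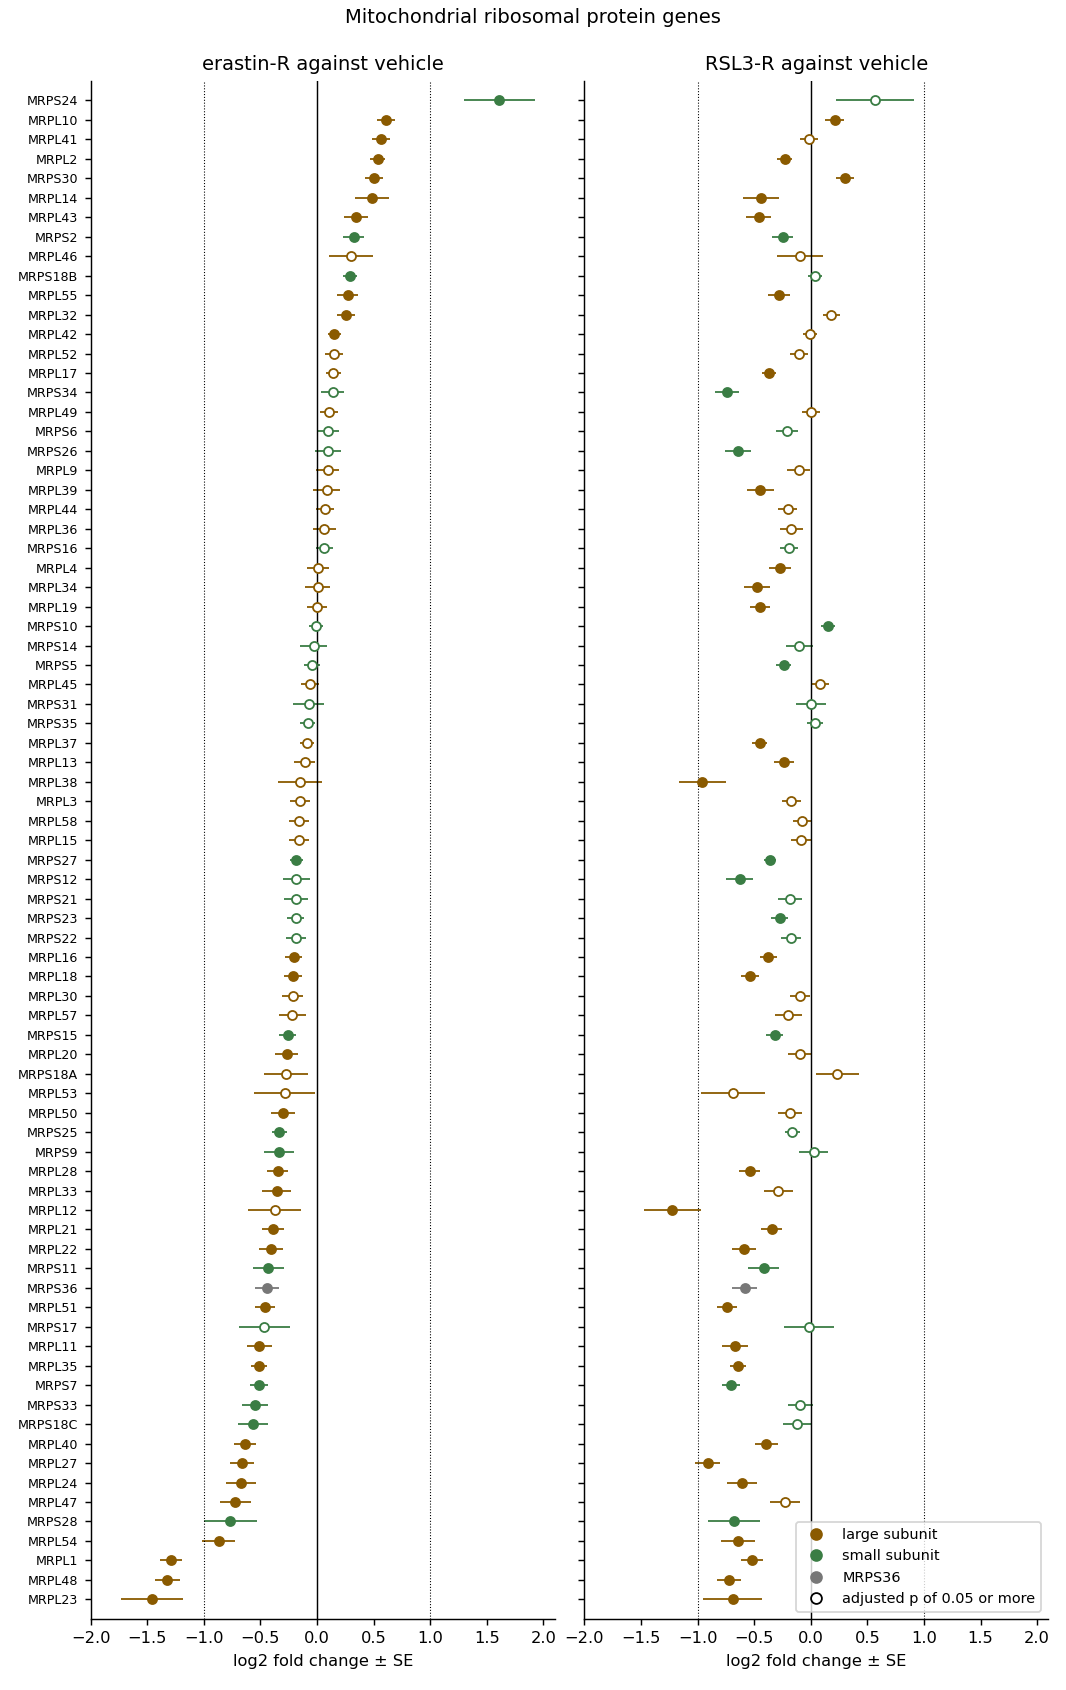
Log2 fold change with standard error of the 78 members in erastin-R and RSL3-R cells against vehicle-treated cells, ordered by the erastin-R value. Filled points passed an adjusted p of 0.05 and dotted lines mark a log2 fold change of 1 either way. In erastin-R cells the values spread from -1.46 to 1.61 with 29 lower and 12 higher calls, and in RSL3-R cells 40 of the 43 called members are lower.

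In RSL3-R cells, 3 members were higher and 40 lower than in vehicle-treated cells, and 35 were not called. Among all genes tested 23.8% were higher and 24.9% lower, against 3.85% and 51.3% of the members. The median log2 fold change of the members was -0.24, and that of all genes was 0.0052. Only MRPL12 was past an absolute log2 fold change of 1, where 10.1% of all genes were called. In 51 members every RSL3-R library lay below every vehicle library and in 5 every one lay above, while these shares were 31.4% and 30.4% of all genes. The 3 higher members were MRPS30, MRPL10 and MRPS10, and 1 member was higher without vehicle replicate 1, vehicle replicate 2 or erastin-R replicate 3. Past the fold change there were 0 members by edgeR without vehicle replicate 1 and 2 without vehicle replicate 2.

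Of the 51 large subunit genes, 28 were lower and 2 higher in RSL3-R cells, and of the 26 small subunit genes 11 were lower and 1 higher. The conserved large subunit genes had 20 of 30 lower and 1 higher, and the mitochondrial ones 8 of 21 lower and 1 higher. Of the conserved small subunit genes 7 of 16 were lower (43.8%) and 1 higher, and of the mitochondrial ones 4 of 10 were lower (40%) and 0 higher. The large subunit as a whole had 54.9% lower and the small subunit 42.3%, against 24.9% lower and 23.8% higher among all genes. MRPS36 was lower here too (log2 fold change -0.58, edgeR adjusted p = 4.80e-04). Among the 44 members with under 5% of their exons in another gene, 25 were lower and 3 higher.

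MRPL27 (chromosome 17, 50367857 to 50373214) had 36.2, 35.4 and 31.2 CPM in vehicle-treated cells, 22.6, 19.9 and 22.6 in erastin-R cells and 21.0, 16.4 and 17.2 in RSL3-R cells. Both survivor ranges lay below that of vehicle-treated cells and overlapped each other. RSL3-R had a log2 fold change of -0.91 (SE 0.11, edgeR adjusted p = 1.02e-05). RSL3-R and erastin-R cells differed by -0.25 (edgeR adjusted p = 0.0725).

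MRPS34 (chromosome 16, 1771890 to 1773155) is a mitochondrial protein needed for a stable small subunit. Its level was 45.2, 44.8 and 38.8 CPM in vehicle-treated cells, 45.7, 47.3 and 48.8 in erastin-R cells and 25.9, 29.8 and 21.7 in RSL3-R cells. RSL3-R libraries stood below the others. Relative to vehicle, RSL3-R fell by 0.74 on the log2 scale (SE 0.11, edgeR adjusted p = 5.44e-05), erastin-R had 0.14 (edgeR adjusted p = 0.266), and the direct difference was -0.88 (SE 0.10, edgeR adjusted p = 1.43e-05). MRPS26, another mitochondrial small subunit protein, had 30.1 to 38.5 CPM in vehicle-treated cells, 31.4 to 41.5 in erastin-R cells and 21.0 to 23.9 in RSL3-R cells (a log2 difference of -0.64).

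MRPS7 (chromosome 17, 75261674 to 75266373), a conserved protein of the small subunit head, had 55.0, 53.9 and 51.5 CPM in vehicle-treated cells. It fell to 33.9, 38.8 and 39.6 CPM in erastin-R cells and to 33.6, 34.6 and 30.3 in RSL3-R cells. The log2 fold changes were -0.51 (edgeR adjusted p = 1.16e-04) and -0.71 (edgeR adjusted p = 8.50e-06). MRPL51, a mitochondrial large subunit protein, fell by 0.74 in RSL3-R cells and by 0.46 in erastin-R cells, but shares 31.3% of its exons with NCAPD2 on the opposite strand. MRPS12, the conserved protein of the decoding centre, fell by 0.63 in RSL3-R cells, and its log2 fold change in erastin-R cells was -0.18 (edgeR adjusted p = 0.215).

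MRPL12, the factor-binding protein of the stalk that is anchored by MRPL10, had 9.18, 7.23 and 4.81 CPM in vehicle-treated cells and 2.13, 3.05 and 3.86 in RSL3-R cells. The decrease, with a log2 value of -1.22 (SE 0.25, edgeR adjusted p = 0.00112) was the largest of any member in RSL3-R cells. It was -0.99 without vehicle replicate 1. It shares 68.2% of its exons with the gene AC139530.2, which had 0 counts in every library. MRPL38 had 4.59, 3.03 and 4.01 CPM in vehicle-treated cells and 2.26, 1.86 and 1.87 in RSL3-R cells (log2 fold change -0.96, edgeR adjusted p = 0.00168), and shares 37.5%.

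MRPS10 (chromosome 6, 42206801 to 42217865), the member with the highest level, had 170.7, 171.5 and 183.2 CPM in vehicle-treated cells and 194.9, 185.0 and 203.5 in RSL3-R cells. The RSL3-R range lay just above the vehicle range. The log2 difference was 0.15 (SE 0.06, edgeR adjusted p = 0.0484), and the call was lost under 9 of 16 other settings.

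**Figure D4:**
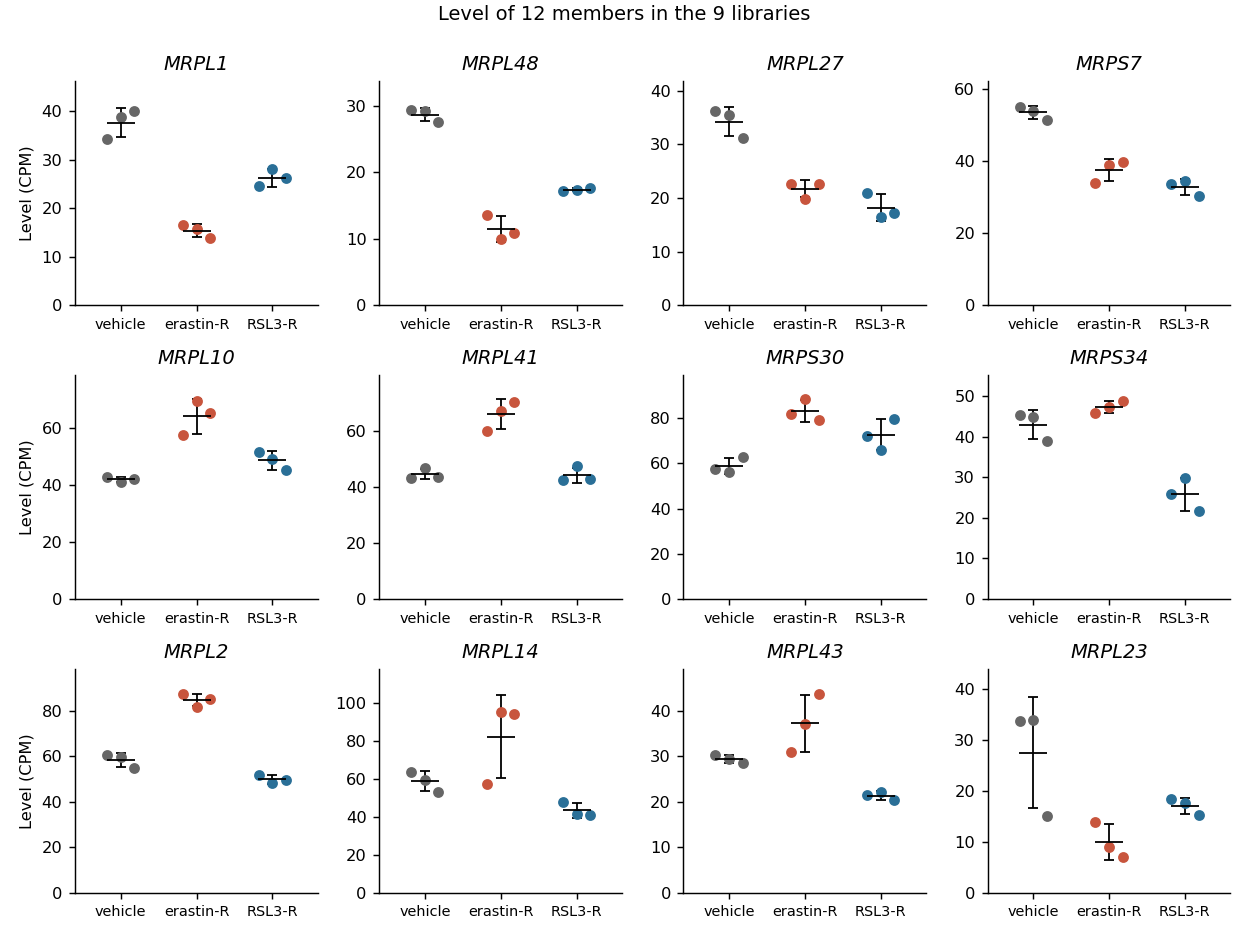
Level in CPM of 12 members in the 3 libraries of each condition, with mean and SD. MRPL1 and MRPL48 are lowest in erastin-R cells, MRPS34 is lowest in RSL3-R cells, MRPL2 lies above vehicle in erastin-R and below it in RSL3-R cells, and the low vehicle replicate 3 of MRPL23 and the low erastin-R replicate 1 of MRPL14 stand out.

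Compared directly, 10 members were higher and 29 lower in RSL3-R than in erastin-R cells, and 39 were not called. Among all genes tested 22.3% were higher and 26.9% lower, against 12.8% and 37.2% of the members. The median log2 difference of the members was -0.16, and that of all genes was -0.024. MRPS24 (-1.04, a call lost without erastin-R replicate 3) was past an absolute log2 fold change of 1, where 10.3% of all genes were called. By subunit, 5 large subunit genes were higher and 19 lower, and 5 small subunit genes were higher and 10 lower. Without erastin-R replicate 1 the members higher in RSL3-R cells numbered 17, with 33 lower, and 3 were past the fold change. They numbered 6 without erastin-R replicate 2 or RSL3-R replicate 2 and 5 without erastin-R replicate 3. Past the fold change were 0 by edgeR without RSL3-R replicate 2 or erastin-R replicate 3, and 2 without RSL3-R replicate 3.

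As RSL3-R minus erastin-R log2 differences, the members higher in RSL3-R cells included MRPL1 (0.77), MRPL23 (0.77), MRPL48 (0.60), MRPS18A (0.51) and MRPL47 (0.50). The calls of MRPL1, MRPL48 and MRPL47 held under all 16 other settings, while that of MRPL23 was lost under 5 of them, DESeq2 included, and that of MRPS18A under 6. For MRPS18A the difference was 0.86 without erastin-R replicate 1 and 0.32 without erastin-R replicate 2. MRPL54 and MRPS28, which had also fallen in erastin-R cells, had differences of 0.23 and 0.09 that were not called. Without erastin-R replicate 1 both were called (0.44 and 0.52). The comparison uses the same erastin-R libraries as the one with vehicle, so its values are no independent support. MRPS33 was also higher in RSL3-R than in erastin-R cells, with 24.3 to 25.7 CPM in vehicle-treated cells, 15.1 to 20.7 in erastin-R cells and 23.0 to 23.7 in RSL3-R cells (difference 0.46, edgeR adjusted p = 0.00414).

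In 5 members, erastin-R cells were above and RSL3-R cells below vehicle-treated cells, each at an adjusted p under 0.05. The share of all genes with such opposite calls is not given here. MRPL2 (chromosome 6, 43054029 to 43059806), a conserved protein next to the peptidyl transferase centre, had 60.7, 59.8 and 54.8 CPM in vehicle-treated cells, 87.3, 81.8 and 85.3 in erastin-R cells and 51.7, 48.2 and 49.6 in RSL3-R cells. The 3 conditions were separate. MRPL2 shares 14.7% of its exons with KLC4 on the opposite strand. The log2 fold changes were 0.54 (SE 0.07, edgeR adjusted p = 1.35e-05) and -0.23 (SE 0.07, edgeR adjusted p = 0.0119), and RSL3-R minus erastin-R was -0.77 (SE 0.07, edgeR adjusted p = 8.90e-07).

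MRPL14 (chromosome 6, 44113454 to 44127457) had 63.7, 59.4 and 53.1 CPM in vehicle-treated cells, 57.0, 95.2 and 94.1 in erastin-R cells and 47.6, 41.5 and 40.8 in RSL3-R cells. Erastin-R replicate 1 lay within the vehicle range and the other erastin-R libraries far above it. Erastin-R gained 0.48 on the log2 scale (SE 0.15, edgeR adjusted p = 0.0153) and 0.69 without replicate 1. MRPL43, a mitochondrial large subunit protein, had 28.5 to 30.2 CPM in vehicle-treated cells, 31.0, 37.1 and 43.6 in erastin-R cells and 20.5 to 22.2 in RSL3-R cells. Erastin-R gained 0.34 on the log2 scale for MRPL43, and 0.21 without erastin-R replicate 3, where the call was lost (edgeR adjusted p = 0.0923). It shares 36.9% of its exons with genes on the opposite strand, mostly SEMA4G. MRPL55 and MRPS2 moved less, with log2 fold changes of 0.27 and -0.28 for MRPL55 and 0.32 and -0.25 for MRPS2.

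MRPS18A, MRPS18B and MRPS18C are 3 paralogs related to 1 bacterial protein. MRPS18C, the conserved small subunit form, had 11.2 to 14.4 CPM in vehicle-treated cells, 7.51 to 9.95 in erastin-R cells and 11.7 to 12.2 in RSL3-R cells. It fell in erastin-R cells (log2 fold change -0.57, edgeR adjusted p = 0.00238), with a value of -0.12 in RSL3-R cells. MRPS18B went the other way, with 93.6 to 95.6 CPM in vehicle-treated cells and 107.8, 118.2 and 121.5 in erastin-R cells (log2 fold change 0.29, edgeR adjusted p = 0.00121). MRPS18A read 15.2 to 19.1 CPM in vehicle-treated cells and 19.9, 9.86 and 11.98 in erastin-R cells. Its log2 fold change was -0.28 (edgeR adjusted p = 0.242) with all libraries and -0.63 (edgeR adjusted p = 7.41e-05) without erastin-R replicate 1. MRPS18A and MRPS18C share 47.0% and 40.2% of their exons with genes on the opposite strand.

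Set beside the promoter words, the median log2 fold change of members with the YY1 word was 0.15 for erastin-R and -0.0075 for RSL3-R, against -0.19 and -0.28 for the members without it. With the NRF1 word the medians were -0.215 and -0.17, against -0.154 and -0.27 without, and with the ETS word they were -0.21 and -0.37, against -0.086 and -0.22. MRPL22, with log2 fold changes of -0.41 and -0.59, carries both the YY1 and the NRF1 word. MRPL38, with -0.15 and -0.96, carries both the YY1 and the ETS word, so single members went against these medians. They are descriptions of 69 genes and were not tested.

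Ribosomal proteins with other names had 4 of 5 lower in RSL3-R cells, where 24.9% of all genes were. AURKAIP1, a small subunit protein, had 62.2, 58.1 and 54.8 CPM in vehicle-treated cells and 28.6, 32.2 and 34.0 in RSL3-R cells (log2 fold change -0.89, edgeR adjusted p = 1.52e-06). GADD45GIP1, CHCHD1 and PTCD3 fell by 0.55, 0.62 and 0.23, and the call of PTCD3 held under 11 of 16 other settings. DAP3, a GTP-binding protein of the small subunit head, had -0.11 (edgeR adjusted p = 0.165). In erastin-R cells CHCHD1 was lower (-0.32, called under 13 of 16 other settings) and the other 4 were not called.

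Among 28 genes for assembly of the ribosome and modification of its RNA, 6 rose and 6 fell in erastin-R cells (21.4% each). All genes tested had larger shares there, 27.1% higher and 26.8% lower. RSL3-R cells had 13 of these 28 genes lower (46.4%) and 2 higher (7.14%), against 24.9% and 23.8% of all genes. TFB1M, which methylates the small subunit rRNA, rose from 8.03 to 11.7 CPM in vehicle-treated cells to 16.5 to 18.4 in erastin-R and 16.9 to 23.6 in RSL3-R cells (log2 fold changes 0.75 and 1.03). NOA1, a GTPase of small subunit assembly, rose in erastin-R cells (0.61) and had -0.03 in RSL3-R cells. MRM2, which methylates the large subunit rRNA, fell in both (-0.82 and -0.66), and RCC1L and C1QBP fell by 0.81 and 0.62 in RSL3-R cells.

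Of 17 translation factors and mRNA partners, 6 were lower (35.3%) and 0 higher in erastin-R cells, against 26.8% and 27.1% of all genes. In RSL3-R cells 7 of the 17 were lower (41.2%) and 2 higher (11.8%), against 24.9% and 23.8% of all genes. The elongation factor genes GFM1 and TSFM fell in both, by 0.48 and 0.28 in erastin-R and by 0.36 and 0.65 in RSL3-R cells, and the erastin-R call of TSFM held under 13 of 16 other settings. Of 6 genes for mitochondrial transcription, 2 were higher (33.3%) and 3 lower (50%) in erastin-R cells, and 1 was higher (16.7%) and 3 lower (50%) in RSL3-R cells. The shares of all genes are those given above. POLRMT, the RNA polymerase, had 81.6 to 88.9 CPM in vehicle-treated cells and 139.2, 216.1 and 205.7 in erastin-R cells (log2 fold change 1.13, edgeR adjusted p = 4.15e-06). TFB2M (0.46) was also higher in erastin-R cells, and MTERF1 (-0.90) and TEFM (-0.69) were lower. TFAM, which packages and activates mitochondrial DNA, fell in both survivor groups, by 0.60 and 0.40. Of 8 nuclear regulators, 4 were higher (50%) and 2 lower (25%) in erastin-R cells, against 27.1% and 26.8% of all genes. Among them were ESRRA (0.67) and PPARGC1B (0.73) higher and GABPB1 (-0.69) lower. In RSL3-R cells NRF1 (-0.29) and GABPB1 (-0.61) were lower, 25% of the 8 where 24.9% of all genes were lower.

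The ribosomal RNAs differed between the survivors. MT-RNR1 had 1337, 1393 and 1472 CPM in vehicle-treated cells, 996.2, 398.7 and 413.7 in erastin-R cells and 1321, 1508 and 1361 in RSL3-R cells, with erastin-R replicate 1 again nearest to vehicle. Erastin-R was lower by a log2 value of -1.22 (edgeR adjusted p = 0.00101) and -0.0042 in RSL3-R cells. MT-RNR2 had a value of -0.56 (edgeR adjusted p = 0.0350) in erastin-R cells, a call that was lost without vehicle replicate 3 (-0.48) and held under 10 of 16 other settings, with log2 values from -1.01 without erastin-R replicate 1 to -0.37 without erastin-R replicate 3, and 0.50 (edgeR adjusted p = 0.0611) in RSL3-R cells. Libraries were made from poly(A) RNA, so these levels are of the RNA that was captured.

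Other large groups of genes gave a context for the members. Of all genes tested, 26.8% were lower and 27.1% higher in erastin-R cells, and 24.9% lower and 23.8% higher in RSL3-R cells. Between the survivors, 22.3% of all genes were higher and 26.9% lower in RSL3-R cells. Of 79 cytosolic ribosomal protein genes, 50 were lower in erastin-R cells (median log2 fold change -0.27), and 40 were lower and 3 higher in RSL3-R cells (median -0.23). Of 77 nuclear genes for respiratory chain subunits, 37 were lower and 7 higher in erastin-R cells (median -0.17), and 52 were lower and 3 higher in RSL3-R cells (median -0.39). Between the survivors, the cytosolic genes had 17 higher and 17 lower in RSL3-R cells (median 0.07) and the respiratory chain genes 4 higher and 29 lower (median -0.11), where the members had 10 and 29. Whether the groups differ from the members was not tested.

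**Figure D5:**
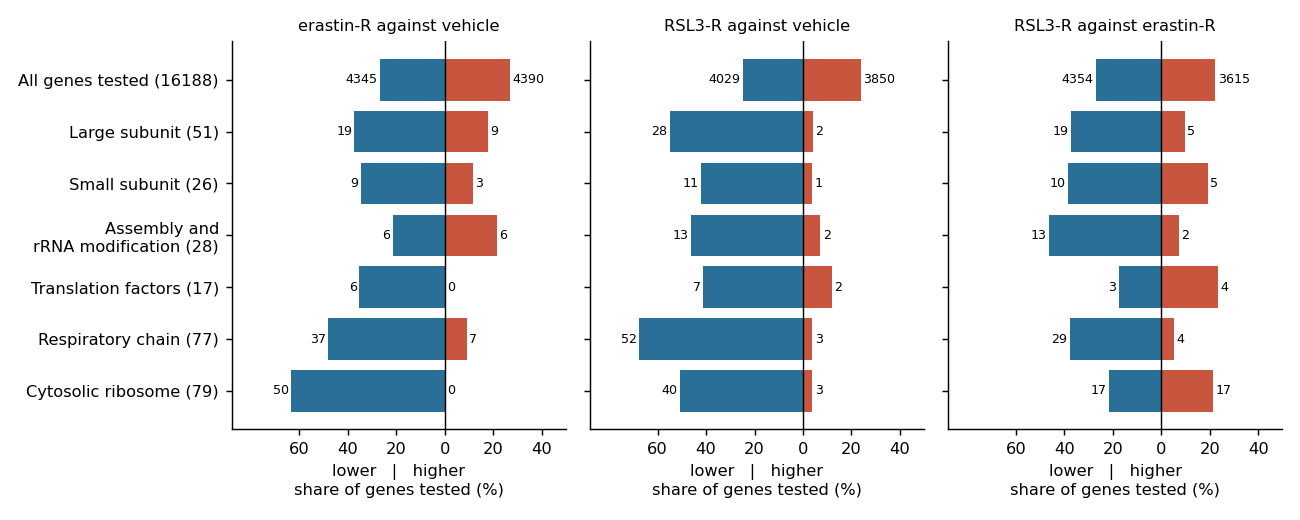
Share of genes called lower (left of 0) and higher (right of 0) at an adjusted p under 0.05 in each of the 3 comparisons, for all genes tested, the members by subunit and 4 other gene groups, with the number called at each bar. In RSL3-R against vehicle-treated cells 28 of 51 large subunit and 11 of 26 small subunit genes are lower, where 24.9% of all genes are.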

How the data were processed

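RNA of 9 libraries was sequenced by the authors from poly(A) RNA with a kit that does not mark strand. The authors deposited counts of uniquely mapped reads per gene, without normalization, and FPKM values, which were not used here. Their processing notes name HISAT2 2.0.5 and featureCounts 1.5.0-p3. Genes, positions and exon lengths equal those of GENCODE 29 (GRCh38) for all 58735 genes. Totals were 15405102 to 17273464 counts per library, and the spread between replicates came to 8.56% (square root of the common dispersion).

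Counts were analysed with edgeR 4.0.16 in R 4.3.3 (TMM, filterByExpr, quasi-likelihood test, 1 model of 9 libraries without covariate, Benjamini-Hochberg adjustment over 16188 genes). SE is the fold change on the log2 scale over the root of its F value. The fit was tested on simulated data. It recovered 12 of 67 genes changed 1.25-fold, 50 of 67 changed 1.5-fold and 53 of 66 changed 2-fold. It also called 3 unchanged genes. In the simulation small changes were thus often missed, and a member not called may have changed. Every simulated gene had the same dispersion, and far fewer genes differed in the simulation than were called in the data. The recovery rates may therefore not hold for the members. Members, gene lists and the naming rule were chosen with earlier results of these data known. Named members were, among those called whose groups of libraries did not overlap, up to 8 with the largest increase and decrease against vehicle and 5 each way between survivors, together with those past a log2 fold change of 1, those called in opposite directions, the 3 highest and lowest levels and the MRPS18 paralogs. MRPL3, MRPL11, MRPL22, MRPL32, MRPL40, MRPL53, MRPS12, MRPS17, MRPS26 and MRPS36 were added after their values were seen. Alternatives were DESeq2 1.42.0, RLE or total count scaling, no filter, 2 conditions only, the replicate number as a block, removal of a gene length trend, and each library left out. Replicate numbers did not pair libraries. Promoters are from RefSeq (GRCh38.p14).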

Additional observations from a re-analysis of the deposited data

Results flagged for a closer look

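In 5 members the change in erastin-R cells differed from that in RSL3-R cells, with called values on opposite sides of vehicle-treated cells. As RSL3-R minus erastin-R log2 difference, tested in edgeR's model of all libraries, MRPL14 had -0.92 (adjusted p = 2.34e-04), MRPL43 -0.80 (adjusted p = 4.61e-05), MRPL2 -0.77 (adjusted p = 8.90e-07), MRPS2 -0.57 (adjusted p = 2.14e-04) and MRPL55 -0.55 (adjusted p = 3.65e-04). These 5 differences were past the threshold under all 16 other settings. However, the 5 members were picked by their opposite calls against vehicle in the same libraries. A called difference between the survivors was thus largely fixed in advance and is no separate support. The calls against vehicle, on which this choice rests, were lost more often. The erastin-R call was lost under 3 settings for MRPL14, 2 for MRPL43, 5 for MRPL55 and 1 for MRPS2, and the RSL3-R call under 5, 3, 7 and 9 settings for MRPL14, MRPL2, MRPL55 and MRPS2.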

How the results depend on the processing

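The counts of members called lower and the median log2 fold changes kept their direction in all 3 comparisons under DESeq2, RLE or total count scaling, no filter, only 2 conditions, the replicate block and removal of the gene length trend. Members higher in RSL3-R than in vehicle-treated cells numbered 3, and 1 without the filter, 5 with only 2 conditions and 1 with the replicate block. Members higher in RSL3-R than in erastin-R cells numbered 10, and 6 with the gene length trend removed. The replicate block gave 11 higher and 27 lower members in erastin-R cells against 12 and 29, and 38 lower in RSL3-R cells against 40. Libraries with the same number did not deviate together (mean correlation -0.0049 over 9 pairs, 0.0026 over 18 other pairs).

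Leaving out 1 library at a time, erastin-R against vehicle-treated cells gave 7 to 14 higher members (7 without erastin-R replicate 3), 21 to 34 lower, 4 to 6 past a log2 fold change of 1 and medians of -0.17 to -0.13. RSL3-R against vehicle-treated cells gave 1 to 4 higher (1 without vehicle replicate 1, vehicle replicate 2 or erastin-R replicate 3), 28 to 49 lower, 0 to 2 past that fold change (0 without vehicle replicate 1, 2 without vehicle replicate 2) and medians of -0.28 to -0.20. RSL3-R against erastin-R cells gave 5 to 17 higher (5 without erastin-R replicate 3, 6 without erastin-R replicate 2 or RSL3-R replicate 2, 17 without erastin-R replicate 1), 21 to 33 lower, 0 to 3 past that fold change (0 without RSL3-R replicate 2 or erastin-R replicate 3, 2 without RSL3-R replicate 3, 3 without erastin-R replicate 1) and medians of -0.17 to -0.11. The cause of these shifts was not tested. No direction reversed for any count, median or named gene that was called. Members under a few CPM, such as MRPS24, MRPL53 and MRPL46, have wide standard errors at this depth.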
